A study of Danio rerio with 27 samples.

Results

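The genes described here were those of digestion in pancreas and gut of zebrafish larvae. They were 26 named genes together with every entry of the deposited table whose symbol matched a set of digestive enzyme families (carboxyl ester lipases, acidic chitinases, c6ast astacins, carboxypeptidases, chymotrypsins, elastases, trypsins, amylases, pancreatic lipases and meprins). All 26 named genes were found and 12 more came from the families, which gave 38 genes of 39988 entries. By their known roles 19 were assigned to the exocrine pancreas and its development and 15 to the gut, while 4 (the astacins c6ast1, c6ast3 and c6ast4, and the carboxypeptidase cpa6) were left without a tissue.

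Whole larvae were pooled and frozen at 21 days post fertilisation (dpf), and 1 library of 3′ ends of polyadenylated RNA was made from each pool. PY larvae (genotype label P53KO;lf:YAP) lacked p53 and overexpressed YAP, which drives transcription for growth, constantly in the liver, and the series' design text calls them cachectic, that is wasting, and tumour-burdened. In PY TGR5-KO, PY CYP7a1-KO and PY SLC45a2-KO there were 5 libraries each, and in WT TGR5-KO, WT CYP7a1-KO and WT SLC45a2-KO 4 each. Every group carried the knockout of slc45a2, a transporter gene used as a pigment marker. The first 2 groups of each background had in addition a knockout of TGR5 (gene gpbar1) or of CYP7a1. TGR5 is a receptor that senses bile acids, and CYP7a1 starts the classical route of bile acid synthesis. Knockouts were made by CRISPR/Cas9 injected into the yolk, so that the larvae were injected animals and not bred lines. The sources used here do not spell out lf in the genotype label or the promoter behind YAP. They give neither how many larvae a pool held nor where the guides cut. The labels do not say whether pools came from separate clutches, so p-values measure the spread between these pools, which may be technical.

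Acinar cells of the exocrine pancreas make proteases as inactive precursors (trypsinogens, chymotrypsinogens, proelastases and procarboxypeptidases), together with lipases and amylase, and release them into the gut, where bile salts disperse fat and activate carboxyl ester lipase. Enterocytes finish digestion with peptidases held on the microvilli of their brush border and take up peptides and lipids, while goblet cells secrete mucus. In zebrafish larvae these organs are formed and in use well before the stage sampled.

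Total counts were 3377345 to 6238251 per library. The targeted genes gave no check of the knockouts. For slc45a2 there were 20 counts in all 27 libraries and for gpbar1 45, and cyp7a1 was not lower after its own knockout, with 7.42 to 17.6 CPM in PY CYP7a1-KO against 5.25 to 12.7 CPM in PY SLC45a2-KO, and 33.4 to 55.7 CPM in WT CYP7a1-KO against 0.625 to 4.03 CPM in WT SLC45a2-KO. With TGR5-KO cyp7a1 stood at 8.41 to 17 CPM in PY and at 20.5 to 37.3 CPM in WT, the latter also above WT SLC45a2-KO. Where the edit lies outside the 3′ end that was read, such counts cannot check it. PY SLC45a2-KO library 4 was the lowest of its group in 13 of the 14 pancreatic genes tested, and WT TGR5-KO library 4 was the lowest of its group in 12 of 14, so both are given apart where a result rests on them. PY CYP7a1-KO libraries 1 and 2 were left out together as well. Values are CPM (counts per 1000000 counts of a library, scaled by TMM factors), and changes are log2 changes ± SE from edgeR, called at an adjusted p of at most 0.05 over the 15521 genes tested.

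Of the 38 genes 30 passed the filter on low counts and were tested, 14 of them pancreatic, 13 of the gut and 3 unassigned. All but chia.4 and cpa6 had counts in every library, so they did not pass through 1 group alone. The other 8 were not tested. The carboxypeptidase cpb1, the meprin mep1b and the intestinal fatty acid carrier fabp2 were listed at 0 in all 27 libraries. The chymotrypsinogen ctrb1 had 3 counts, the elastase ela2 21, the astacin c6ast1 18, and the transcription factors of pancreas development pdx1 and ptf1a 10 and 6. A count of 0 allows a level of up to 3 counts, which equalled 0.481 to 0.888 CPM per library and covers counting error only. The insulin gene ins and the muscle actinin actn3a, abundant genes in fish larvae, were also listed at 0 in every group. A 0 in this table is therefore given as listed and not read as an absence.

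The summed level of the pancreatic genes was lowest in PY SLC45a2-KO and that of the gut genes as well. Pancreatic genes summed to 10713 ± 616 CPM in PY TGR5-KO, 14758 ± 2007 CPM in PY CYP7a1-KO and 8870 ± 2007 CPM in PY SLC45a2-KO (SD, n = 5 each). The WT groups stood at 15631 ± 2764 CPM with TGR5-KO, 19183 ± 987 CPM with CYP7a1-KO and 19898 ± 1345 CPM with SLC45a2-KO alone (SD, n = 4 each). Thus 0.542 to 1.08% of all counts fell on pancreatic genes in PY SLC45a2-KO, against 1.71 to 2.04% in WT SLC45a2-KO. Gut genes summed to 1907 ± 156.7 CPM in PY TGR5-KO, 2058 ± 307 CPM in PY CYP7a1-KO and 1201 ± 154.6 CPM in PY SLC45a2-KO (n = 5 each). In WT they summed to 2379 ± 326 CPM with TGR5-KO, 1782 ± 251 CPM with CYP7a1-KO and 3003 ± 130 CPM with SLC45a2-KO alone (n = 4 each). The order of groups differed between the organs within WT, where CYP7a1-KO left the pancreatic sum within the range of SLC45a2-KO and the gut sum below it. Such sums follow the most abundant genes and do not stand for every gene of an organ. Over all libraries these were prss1, ctrl, prss59.1 and prss59.2 of the pancreas (means of 3357, 2922, 2491 and 2285 CPM). Of the gut they were fabp6 and chia.1 (571 and 500 CPM). In RNA from whole larvae, fewer cells of a type and less RNA per cell cannot be told apart.

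**Figure D1:**
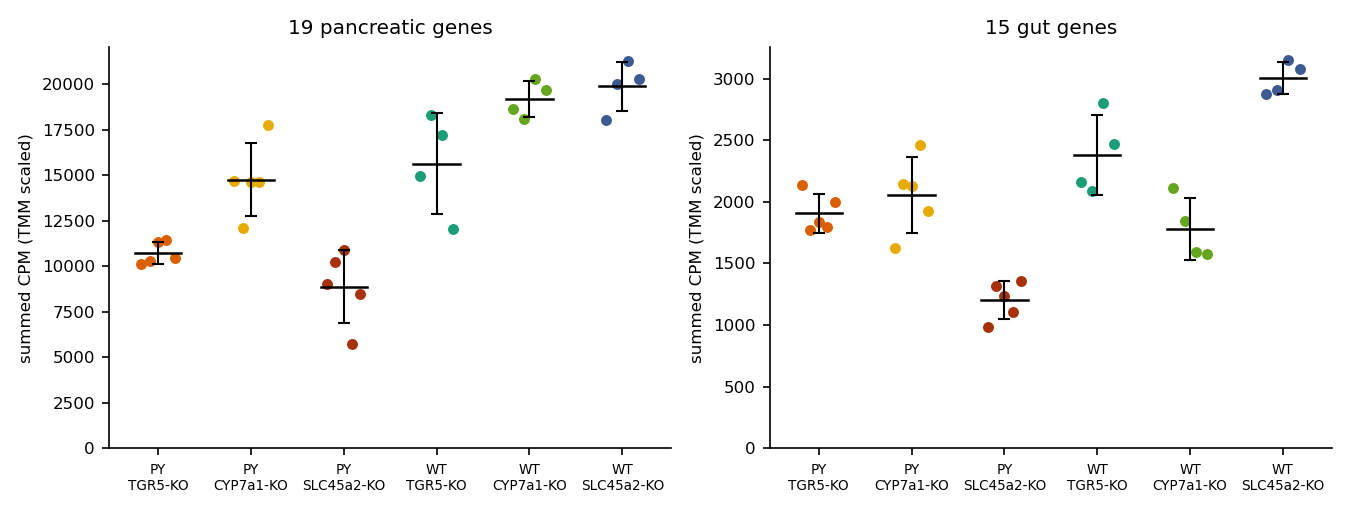
Summed CPM (TMM scaled) of the 19 pancreatic genes (left) and the 15 gut genes (right) in each library, by group, with points for libraries and black lines for the mean ± SD (n = 5 in PY groups, n = 4 in WT groups). PY SLC45a2-KO was lowest in both, at 5712 to 10887 CPM (pancreatic) and 988 to 1361 CPM (gut), against 18052 to 21264 CPM and 2878 to 3148 CPM in WT SLC45a2-KO.

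With SLC45a2-KO alone, nearly all pancreatic enzymes were lower in PY than in WT. Of the 14 tested, 13 fell and 0 rose, with a median log2 change of -1.10, while 17.7% of all tested genes were called lower and 17.9% higher in this comparison, with a median of -0.02. The trypsin-like protease prss59.1 had 1009, 1566, 1276, 520 and 1196 CPM in the PY libraries, against 3464, 3882, 4099 and 4109 CPM in the WT libraries. Its highest PY library thus lay below its lowest WT library, a log2 change of -1.80 ± 0.20 or 3.49-fold lower (edgeR adjusted p = 9.04e-08). Its neighbour prss59.2 changed by -1.70 ± 0.18 on the log2 scale. The trypsin prss1 had 2650, 2570, 2826, 1753 and 2241 CPM in PY and 4118, 4477, 4814 and 4605 CPM in WT, with no overlap and a smaller log2 change of -0.90 ± 0.12 (edgeR adjusted p = 3.61e-08).

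The size of the fall differed among the other proteases. The elastases ela2l and ela3l fell by a log2 change of -1.13 ± 0.19 and -1.19 ± 0.16. The chymotrypsin-like ctrl, at 1347 to 2790 CPM in PY and 2880 to 3482 CPM in WT, had the smallest called change of the pancreatic genes (-0.62 ± 0.15, edgeR adjusted p = 0.00105). Carboxypeptidases remove residues from the end of a peptide. Among them cpa4 (-1.15 ± 0.18), cpa5 (-0.77 ± 0.12) and cpa1 (-1.03 ± 0.36) fell. The call of cpa1, a gene at no more than 10.6 CPM in any library and with overlapping groups, was lost without any 1 of PY libraries 1, 4 and 5 or WT libraries 2 and 3 (edgeR adjusted p = 0.0505 to 0.088).

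The fat-digesting enzymes did not move alike. The carboxyl ester lipase cel.1 had 217, 229, 241, 148.6 and 207 CPM in PY and 623, 729, 718 and 643 CPM in WT, so that every PY library lay below every WT library (log2 change -1.70 ± 0.14, 3.25-fold lower, edgeR adjusted p = 3.46e-14). Its tandem copy cel.2 fell by a log2 change of -1.08 ± 0.16. The pancreatic phospholipase pla2g1b was the exception among pancreatic genes. It had 27.5, 37.3, 29.1, 15.7 and 24.4 CPM in PY and 31.3, 29.5, 30.6 and 36.7 CPM in WT, which overlap, with a log2 change of -0.25 ± 0.18 (edgeR adjusted p = 0.283). The amylase amy2a, which cuts starch, fell by a log2 change of -1.02 ± 0.21. PY library 4 was the lowest in most of these genes. Without it 12 of the 13 called genes were still called, all but cpa1.

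**Figure D2:**
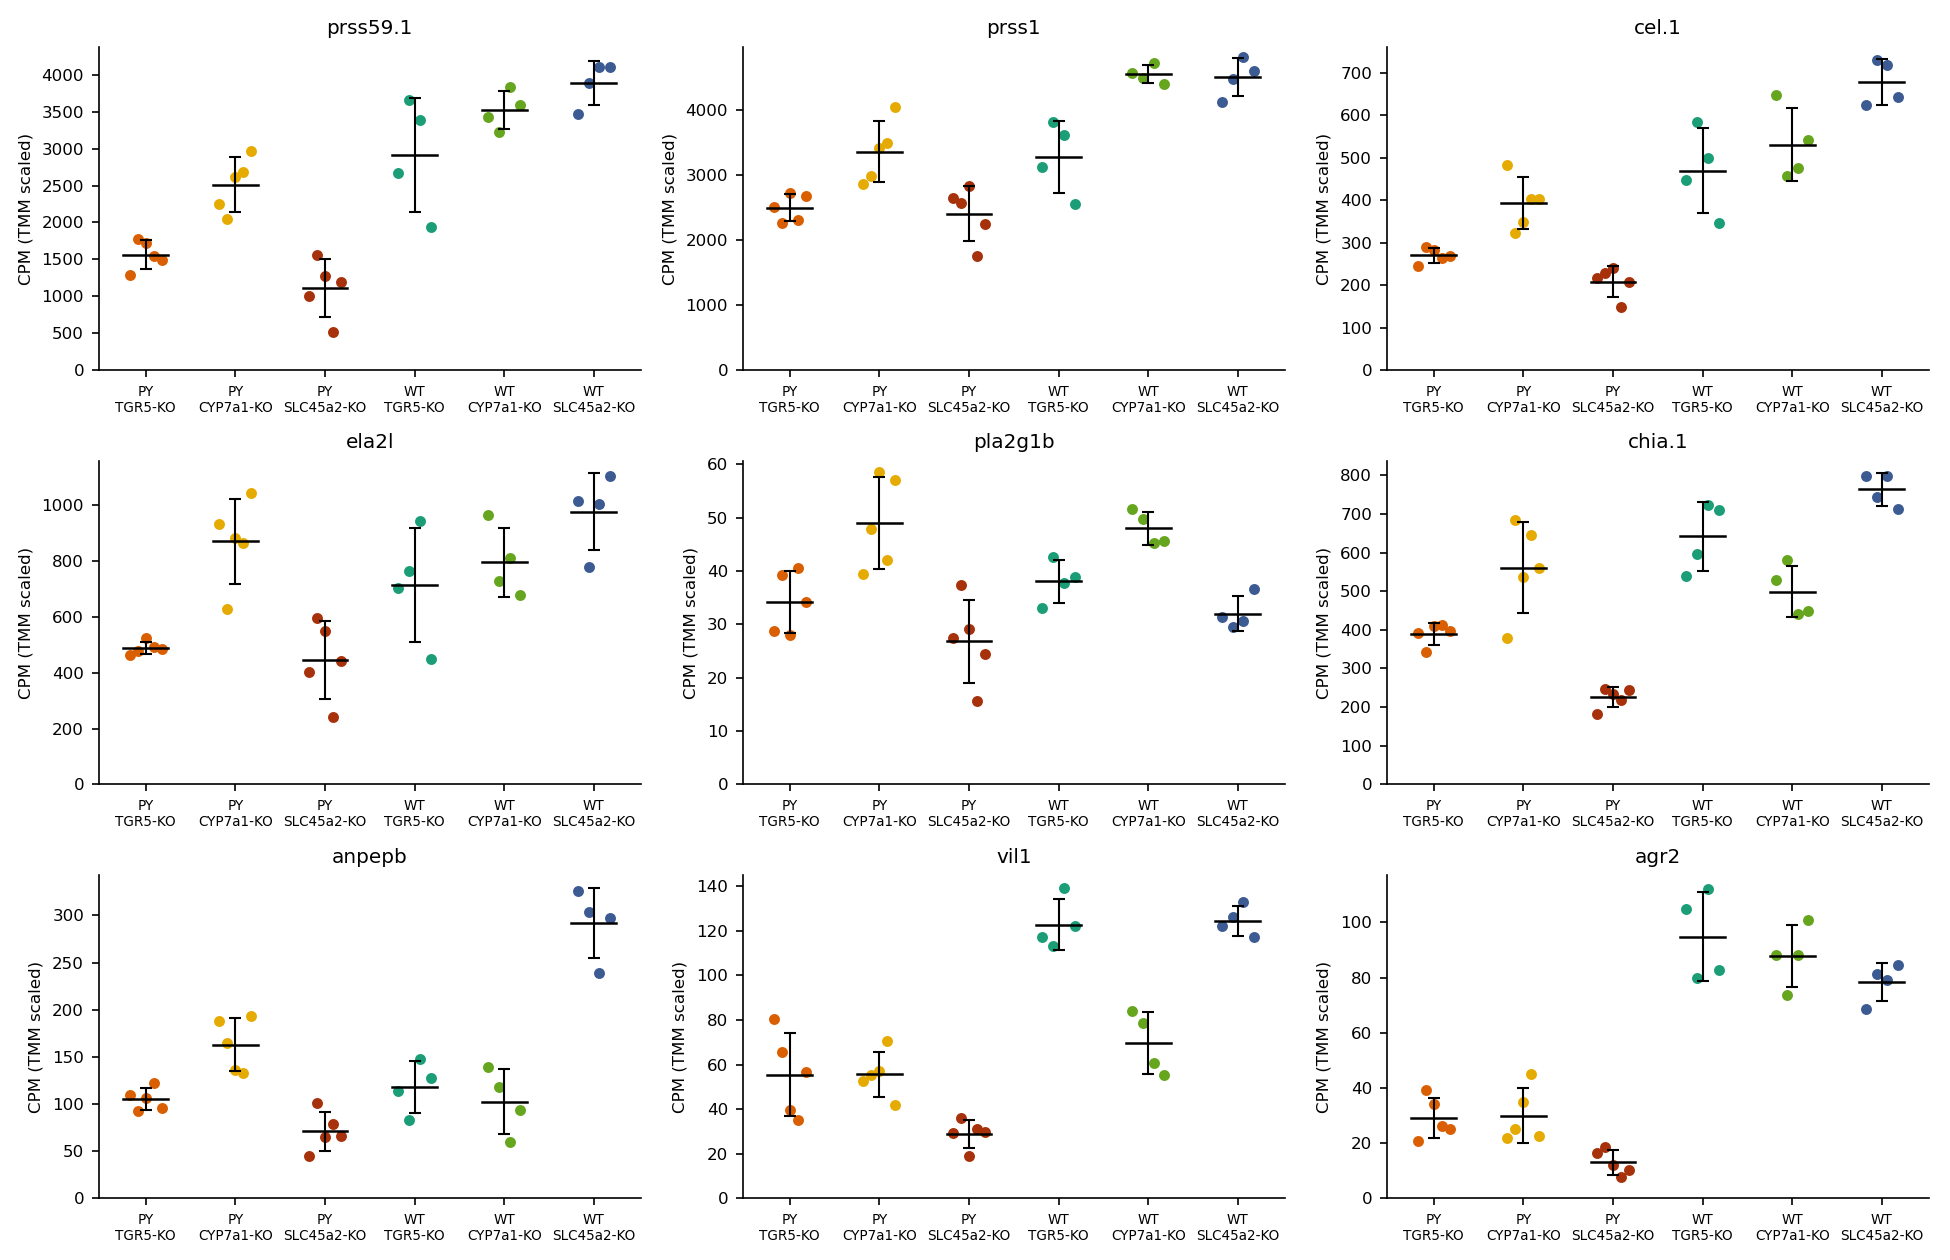
CPM (TMM scaled) of 9 digestive genes in each library by group: points are libraries and black lines the mean ± SD (n = 5 in PY groups, n = 4 in WT groups). In PY SLC45a2-KO all genes shown but pla2g1b lay below WT SLC45a2-KO in every library, for example chia.1 at 183 to 248 CPM against 713 to 799 CPM.

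Gut genes were lower in PY as well, with some exceptions. With SLC45a2-KO alone 10 of 13 fell and 0 rose, with a median log2 change of -1.76. Of all tested genes 17.7% were called lower and 17.9% higher, with a median of -0.02. The goblet cell gene agr2, a disulfide isomerase needed to make mucin, had the largest fall. It stood at 16.6, 18.7, 11.9, 7.74 and 10.2 CPM in PY and at 68.7, 81.3, 79 and 84.7 CPM in WT, a log2 change of -2.58 ± 0.21 (5.96-fold lower, edgeR adjusted p = 1.05e-13). Villin, which bundles actin in microvilli, had 29.3, 35.9, 18.9, 30.9 and 29.9 CPM of vil1 in PY and 122, 126, 133 and 117 CPM in WT (log2 change -2.10 ± 0.18, edgeR adjusted p = 4.08e-13). The brush border peptidases fell together. The aminopeptidase anpepb had 45.3, 101, 64.9, 78.5 and 65.7 CPM in PY and 326, 304, 239 and 297 CPM in WT (log2 change -2.03 ± 0.20, edgeR adjusted p = 4.48e-10), and the meprins mep1a.1 and mep1a.2 had log2 changes of -2.22 ± 0.23 and -1.59 ± 0.33.

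Of the chitinases, enzymes that break down the chitin of food animals, chia.1 had 183, 248, 233, 218 and 244 CPM in PY and 799, 744, 798 and 713 CPM in WT (log2 change -1.76 ± 0.13, edgeR adjusted p = 2.11e-15). The adjacent chia.2 fell by a log2 change of -1.84 ± 0.15. The third of this cluster, chia.3, had 134, 78.7, 122, 136 and 129 CPM in PY and 109, 98.9, 134 and 160 CPM in WT, which overlap (log2 change -0.07 ± 0.17, edgeR adjusted p = 0.792). Of the chitinases at low levels, chia.4, with at most 1.27 CPM in PY and 2.08 to 2.5 CPM in WT, was called lower (-1.91 ± 0.71), a call lost without any 1 of PY libraries 3 and 4 or WT libraries 2 and 3 (edgeR adjusted p = 0.0506 to 0.0759). For chia.6 the log2 change was -0.72 ± 0.31 (edgeR adjusted p = 0.0688). The counting is not described in the sources used here, so reads of near-identical copies of the chia, cel, prss59, mep1a and c6ast families may have been split between them, and single copies are uncertain.

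Among genes of uptake, the bile acid carrier fabp6 of the ileum fell, with 247, 504, 452, 284 and 516 CPM in PY and 721, 827, 1000 and 849 CPM in WT (log2 change -1.08 ± 0.27, edgeR adjusted p = 0.00311). The peptide transporter slc15a1b had 211, 163.4, 170, 174 and 181 CPM in PY and 221, 233, 180 and 266 CPM in WT, which overlap, and it was not called (-0.32 ± 0.17, edgeR adjusted p = 0.145). The intestinal homeobox gene cdx1b fell by a log2 change of -0.94 ± 0.18, with 15.2 to 23.4 CPM in PY and 31.3 to 37 CPM in WT.

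The astacins, secreted metalloproteases of fish, fell in this comparison too. c6ast4 had 97, 123, 96.5, 63.5 and 125 CPM in PY and 481, 599, 559 and 480 CPM in WT, a log2 change of -2.39 ± 0.19 (5.23-fold lower, edgeR adjusted p = 1.55e-12). c6ast3 fell by a log2 change of -1.33 ± 0.17. The carboxypeptidase cpa6 stayed at or under 4.7 CPM in every library and was not called here (-1.93 ± 0.81, edgeR adjusted p = 0.0562).

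Genes of other tissues moved in the same comparison, where 17.9% of all genes were called higher and 17.7% lower. Their part in these results was not tested. Of 24 hepatocyte genes 12 rose and 3 fell, their summed level was 28644 to 38296 CPM in PY SLC45a2-KO and 17723 to 22786 CPM in WT SLC45a2-KO, and hp alone was at 0 in the WT group. Of 19 proliferation genes 0 rose and 11 fell (318 to 470 CPM in PY against 716 to 821 CPM in WT), with cdk1 and plk1 at 0 in both groups. Of 17 fast muscle genes 2 rose and 9 fell (43441 to 58525 CPM in PY against 68301 to 77293 CPM in WT), and actn3a, ckma and pvalb2 were at 0 in both groups.

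Further genes of acinar cells and enterocytes, from lists that hold none of the 38 genes, were less uniform. Of 15 tested genes of acinar secretion and pancreas identity 4 rose and 7 fell, with a median log2 change of -0.79. Lower were zgc:92590, with 91.7 ± 32.8 CPM in PY and 456 ± 87.1 CPM in WT (SD, n = 5 and 4, log2 change -2.31 ± 0.36), and the zymogen granule protein gene sycn.2, with 43.2 ± 3.24 CPM in PY and 132 ± 24.3 CPM in WT (-1.61 ± 0.15). Higher were the nuclear receptor nr5a2 (2.02 ± 0.19) and the homeobox gene prox1a (1.89 ± 0.18), which the liver also expresses. Of 41 tested genes of the enterocyte brush border and absorption 4 rose and 18 fell, with a median of -0.65. The vitamin B12 receptor subunit amn (-2.05 ± 0.32), the apolipoprotein apoa4b.2 (-1.85 ± 0.27) and the intestinal alkaline phosphatase alpi.2 (-1.85 ± 0.30) fell. The claudin cldn15lb of this list rose (2.61 ± 0.15). In RNA from whole larvae the tissue behind its rise, or behind the falls named here, was not tested. Of 24 goblet, enteroendocrine and intestinal transcription factor genes 5 rose and 4 fell, with a median of -0.37. These counts were near the shares of all genes called higher (17.9%) and lower (17.7%) in this comparison. Genes of this list were named by size of change, so the 4 that fell are not named. The transcription factor genes foxa3 (45.8 ± 13.4 CPM in PY and 9.98 ± 1.58 CPM in WT), also a liver gene, gata5 (log2 change 1.82 ± 0.21), sox9b (1.74 ± 0.18), also a bile duct gene, and hnf4g (1.26 ± 0.22) rose.

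The comparison of PY with WT was repeated in larvae with each further knockout. With TGR5-KO 10 of 14 pancreatic genes fell and 0 rose (median log2 change -0.65), where 8.42% of all genes were called lower and 11.4% higher, with a median of 0.02. With CYP7a1-KO 6 of 14 fell and 0 rose (median -0.38), where 9.96% were called lower and 13.3% higher, with a median of 0.01. Without PY CYP7a1-KO libraries 1 and 2 the number was 3 of 14, as prss1, prss59.2 and ela3l missed the threshold (edgeR adjusted p = 0.0626 to 0.074). The trypsin-like prss59.2 stood at 1129, 1533, 1427, 1445 and 1264 CPM in PY TGR5-KO against 2431, 3567, 3200 and 1868 CPM in WT TGR5-KO (log2 change -1.02 ± 0.18). With CYP7a1-KO its values were 1919, 1469, 1897, 2339 and 2451 CPM in PY and 3038, 2643, 3805 and 3616 CPM in WT (log2 change -0.70 ± 0.18). Neither pair of groups overlapped. The elastase ela2l fell with TGR5-KO (-0.55 ± 0.19, edgeR adjusted p = 0.0417), a call lost without any 1 PY library and without WT library 1, 2 or 3 (0.0557 to 0.187), and stood at 0.13 ± 0.19 with CYP7a1-KO.

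In the gut the PY and WT values lay closer under the knockouts, and some genes were higher in PY. Both backgrounds had moved. With CYP7a1-KO the mean gut sum was 1782 CPM in WT, against 3003 CPM with SLC45a2-KO alone, and 2058 CPM in PY, against 1201 CPM. With TGR5-KO it was 2379 CPM in WT and 1907 CPM in PY. With TGR5-KO 1 of 13 gut genes rose and 5 fell (median log2 change -0.31), or 3 without WT TGR5-KO library 3. Of all genes 11.4% were called higher and 8.42% lower there. With CYP7a1-KO 3 rose and 2 fell (median 0.07), where 13.3% of all genes were called higher and 9.96% lower. The counts with CYP7a1-KO are too few to set apart from these shares. The goblet cell gene agr2 was lower in PY under both knockouts, at 20.9, 39.1, 34.1, 26.3 and 25.2 CPM in PY TGR5-KO against 105, 79.8, 112 and 82.8 CPM in WT TGR5-KO (log2 change -1.70 ± 0.20). Under CYP7a1-KO it stood at 22, 25.1, 34.9, 45.1 and 22.7 CPM in PY and 88.2, 73.6, 88.3 and 101 CPM in WT (log2 change -1.54 ± 0.20), again without overlap. The homeobox gene cdx1b fell under both (-0.59 ± 0.17 and -0.59 ± 0.17), though without WT TGR5-KO library 3 the first was not called (edgeR adjusted p = 0.113). The chitinase chia.3 was higher in PY under TGR5-KO, at 231, 143.2, 179, 137 and 187 CPM against 82.4, 96.4, 110 and 90.2 CPM in WT (log2 change 0.89 ± 0.17, edgeR adjusted p = 1.26e-04), and the groups did not overlap. Under CYP7a1-KO it was called at 0.44 ± 0.17 (edgeR adjusted p = 0.0497). DESeq2, RLE factors, a stricter filter or leaving out PY library 1, 2, 3 or 4 or WT library 2, 3 or 4 ended this call (0.0526 to 0.169). So did a fit of the 2 groups alone (0.0712) and TMM without these genes and those over 1% of counts (0.0571). Without PY CYP7a1-KO libraries 1 and 2 the log2 change was 0.28 (edgeR adjusted p = 0.302).

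Also under CYP7a1-KO, the meprin mep1a.2 rose in PY relative to WT (1.12 ± 0.32, edgeR adjusted p = 0.0096), as did anpepb (0.67 ± 0.20, edgeR adjusted p = 0.0123). The call of anpepb was lost without WT CYP7a1-KO library 3 (0.0743) and without PY CYP7a1-KO libraries 1 and 2 (0.0827). The astacin c6ast4 was lower in PY under both knockouts (-1.63 ± 0.18 and -1.43 ± 0.18), whereas c6ast3 fell under TGR5-KO (-0.60 ± 0.17, or edgeR adjusted p = 0.0706 without WT library 2) and was at 0.11 ± 0.17 under CYP7a1-KO. Hepatocyte genes rose in these comparisons as well, in 13 of 24 cases under TGR5-KO with 2 lower and in 18 of 24 under CYP7a1-KO with 1 lower. Their summed level was 25690 to 35083 CPM in PY TGR5-KO against 18727 to 22925 CPM in WT TGR5-KO, and 23836 to 33204 CPM in PY CYP7a1-KO against 11481 to 13430 CPM in WT CYP7a1-KO, with hp alone at 0 in the WT groups. Of all genes 11.4% were called higher and 8.42% lower under TGR5-KO, and 13.3% and 9.96% under CYP7a1-KO. The part of the hepatocyte genes in the result was not tested.

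**Figure D3:**
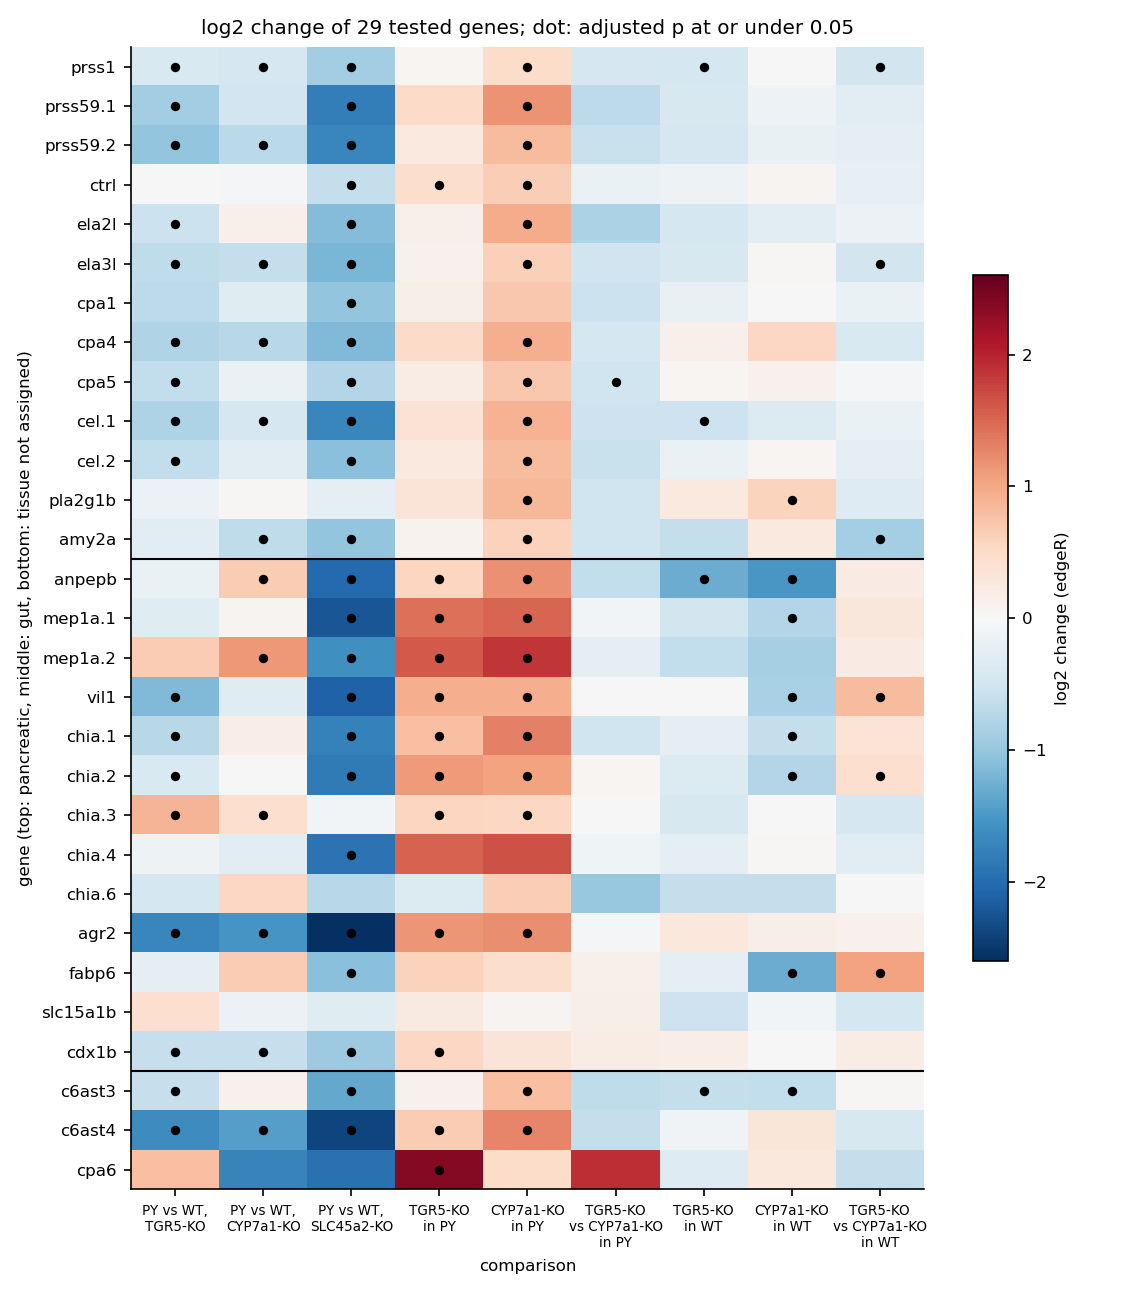
Log2 changes (edgeR, colour) of 29 tested genes in the 9 comparisons between groups, with a dot where the adjusted p was at most 0.05: pancreatic genes at the top, gut genes in the middle and unassigned genes at the bottom. With SLC45a2-KO alone agr2 had the largest fall in PY (-2.58), and in PY mep1a.2 rose with both knockouts (1.59 with TGR5-KO and 1.85 with CYP7a1-KO).

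To ask what each knockout did to the digestive genes of PY larvae, PY TGR5-KO and PY CYP7a1-KO were each compared with PY SLC45a2-KO. These 2 comparisons share their control libraries, so their values are given side by side. With CYP7a1-KO 13 of 14 pancreatic genes rose and 0 fell (median log2 change 0.82), where 7.49% of all genes were called higher and 5.9% lower, with a median of 0.02. With TGR5-KO 1 of 14 rose and 0 fell (median 0.25), where 6.33% were called higher and 5.01% lower, with a median of 0.02. All 14 log2 changes were above 0 with either knockout, and 6 of 14 with TGR5-KO had an unadjusted p under 0.05, a share that was not counted over all genes. PY SLC45a2-KO library 4 was the lowest control in 13 of the 14. The pancreatic sum was 5712 CPM in it and 8482 to 10887 CPM in the other controls, against 10096 to 11416 CPM in PY TGR5-KO. The common direction with TGR5-KO may thus rest on that library. The trypsin-like prss59.1 stood at 2244, 2046, 2620, 2685 and 2967 CPM in PY CYP7a1-KO against 1009, 1566, 1276, 520 and 1196 CPM in PY SLC45a2-KO, without overlap (log2 change 1.17 ± 0.19, 2.26-fold higher, edgeR adjusted p = 1.46e-04). In PY TGR5-KO it had 1291, 1771, 1720, 1551 and 1491 CPM, which overlaps with the controls (0.49 ± 0.19, edgeR adjusted p = 0.102).

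The trypsin prss1 rose with CYP7a1-KO, with 2868, 2987, 3411, 3497 and 4039 CPM (0.48 ± 0.11, edgeR adjusted p = 0.00269). With TGR5-KO it stood at 2514, 2266, 2723, 2305 and 2685 CPM, overlapping with the controls (0.05 ± 0.11, edgeR adjusted p = 0.838). The elastase ela2l rose with CYP7a1-KO to 935, 630, 885, 864 and 1043 CPM, against 401, 598, 549, 243 and 441 CPM in PY SLC45a2-KO (0.97 ± 0.18, no overlap). The lipase cel.1 rose to 483, 323, 350, 404 and 404 CPM in PY CYP7a1-KO (0.91 ± 0.13, edgeR adjusted p = 1.91e-06). In PY TGR5-KO cel.1 had 245, 290, 282, 265 and 269 CPM, above every control library, and missed the threshold (0.37 ± 0.13, edgeR adjusted p = 0.0544).

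The phospholipase pla2g1b, not called lower in PY, rose with CYP7a1-KO to 39.5, 47.9, 58.5, 42.1 and 57 CPM, above all 5 control libraries (0.86 ± 0.17, edgeR adjusted p = 2.17e-04). The amylase amy2a was at the edge of the call with CYP7a1-KO (0.60 ± 0.20, edgeR adjusted p = 0.0451). It rested on PY CYP7a1-KO library 1, without which the log2 change was 0.38 (edgeR adjusted p = 0.184), or 0.33 (0.319) without libraries 1 and 2. Leaving out PY SLC45a2-KO library 1, 2, 4 or 5 or PY CYP7a1-KO library 2 or 5 (0.0597 to 0.139), RLE factors (0.0554) or a fit of the 2 groups alone (0.0588) ended this call too. The chymotrypsin-like ctrl was the pancreatic gene called with TGR5-KO, at 2896, 2515, 2831, 3631 and 2490 CPM against 2064, 2325, 2790, 1347 and 1902 CPM in PY SLC45a2-KO (0.46 ± 0.14, edgeR adjusted p = 0.0272). Its groups overlapped, and the call was lost without PY SLC45a2-KO library 4 (0.117) or 5 (0.0731) or PY TGR5-KO library 1 (0.0534) or 4 (0.0899), and in a fit of the 2 groups alone (0.056). Leaving out single libraries moved the count of pancreatic genes called with TGR5-KO between 0 and 4, with 4 reached without PY SLC45a2-KO library 3 and 0 without library 4 or 5.

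Gut genes rose with both knockouts in PY. With TGR5-KO 9 of 13 were called higher and 0 lower (median log2 change 0.79), and with CYP7a1-KO 8 of 13 and 0 (median 1.05). Of all genes 6.33% and 7.49% were called higher. When 1 library was left out, the count was 6 to 8 with TGR5-KO and 7 to 8 with CYP7a1-KO. The chitinase chia.1 had 391, 342, 409, 413 and 396 CPM in PY TGR5-KO and 380, 683, 536, 645 and 560 CPM in PY CYP7a1-KO, against 183, 248, 233, 218 and 244 CPM in PY SLC45a2-KO. Neither knockout overlapped with the controls (log2 changes 0.79 ± 0.13 and 1.32 ± 0.13, edgeR adjusted p = 1.15e-05 and 1.40e-10). Its neighbour chia.2 rose by 1.11 ± 0.14 with TGR5-KO and 1.05 ± 0.14 with CYP7a1-KO on the log2 scale. The meprin mep1a.2 had the largest log2 change of the gut genes with both knockouts, and overlapped with the controls with TGR5-KO but not with CYP7a1-KO. Its values were 20.3, 15.6, 7.07, 13.7 and 29.8 CPM in PY TGR5-KO and 22.8, 16.1, 17.6, 24.4 and 22.3 CPM in PY CYP7a1-KO, against 3.47, 9.64, 3.48, 4.14 and 7.42 CPM in PY SLC45a2-KO (log2 changes 1.59 ± 0.32 and 1.85 ± 0.32).

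Villin rose with both knockouts (log2 changes 0.94 ± 0.18 and 0.94 ± 0.18). In PY TGR5-KO vil1 had 80.3, 65.7, 39.6, 35 and 56.8 CPM, which overlaps with 18.9 to 35.9 CPM in PY SLC45a2-KO. In PY CYP7a1-KO it had 52.8, 55.4, 57.2, 70.4 and 42 CPM, without overlap. The goblet cell gene agr2 was 2.21-fold higher with TGR5-KO and 2.29-fold higher with CYP7a1-KO (edgeR adjusted p = 9.65e-05 and 4.02e-05), and every library of either knockout lay above the controls. The aminopeptidase anpepb rose to 188, 165.1, 136, 133 and 193 CPM with CYP7a1-KO, without overlap (1.19 ± 0.19, edgeR adjusted p = 3.35e-05). With TGR5-KO its call was at the threshold (0.56 ± 0.19, edgeR adjusted p = 0.0488) and was lost without PY SLC45a2-KO library 1, 3, 4 or 5, without any 1 PY TGR5-KO library (0.0572 to 0.126 over these), without PY CYP7a1-KO libraries 1 and 2 (0.0702) and with RLE factors (0.0624). The chitinase chia.3 rose with both (0.55 ± 0.16 and 0.54 ± 0.16), calls that were lost without PY SLC45a2-KO library 2 (edgeR adjusted p = 0.0757 and 0.083), that with TGR5-KO also without PY TGR5-KO library 1 (0.0862), and that with CYP7a1-KO also without PY CYP7a1-KO library 2 (0.0611) or libraries 1 and 2 (0.17). The homeobox gene cdx1b was called with TGR5-KO (0.53 ± 0.17, edgeR adjusted p = 0.0318), which 7 of the 10 leave-one-out fits of these groups did not keep (0.0508 to 0.0974), and was at 0.34 ± 0.17 with CYP7a1-KO.

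The carrier fabp6 and the transporter slc15a1b were not called with either knockout in PY. For fabp6 the log2 changes were 0.59 ± 0.26 with TGR5-KO and 0.45 ± 0.26 with CYP7a1-KO, and for slc15a1b 0.23 ± 0.16 and 0.08 ± 0.16. The astacin c6ast4 rose with both (0.67 ± 0.17 and 1.27 ± 0.17), and c6ast3 rose with CYP7a1-KO (0.79 ± 0.16) and was at 0.12 ± 0.16 with TGR5-KO. The carboxypeptidase cpa6 was called with TGR5-KO (2.38 ± 0.77, edgeR adjusted p = 0.0333) from 4.7, 1.81, 1.51, 2.37 and 1.46 CPM against 0, 0.41, 0, 1.93 and 0 CPM in PY SLC45a2-KO. These values lie near the limit of counting. Without PY SLC45a2-KO library 4 its log2 change was 4.13, and the call was lost without PY TGR5-KO library 1 (0.134) or without PY SLC45a2-KO library 1, 2, 3 or 5 (0.0686 to 0.0928). Fast muscle genes rose in both comparisons, in 11 of 17 cases with TGR5-KO and 9 of 17 with CYP7a1-KO (1 lower), at 63128 to 85587, 55007 to 90395 and 43441 to 58525 CPM in PY TGR5-KO, PY CYP7a1-KO and PY SLC45a2-KO. Hepatocyte genes fell in 8 and 7 of 24 cases (1 and 3 higher) and proliferation genes rose in 5 and 6 of 19 with 0 lower. In all 3 groups actn3a and tnnc2 of the muscle genes and cdk1 of the proliferation genes were at 0. The part of these lists in the results was not tested. Of 41 further enterocyte genes 9 rose and 3 fell with TGR5-KO and 14 rose and 3 fell with CYP7a1-KO. Of 15 further acinar genes 2 rose and 2 fell with TGR5-KO and 3 rose and 2 fell with CYP7a1-KO. Of all genes 6.33% were called higher and 5.01% lower with TGR5-KO, and 7.49% and 5.9% with CYP7a1-KO. The acinar counts are too few to set apart from these shares.

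**Figure D4:**
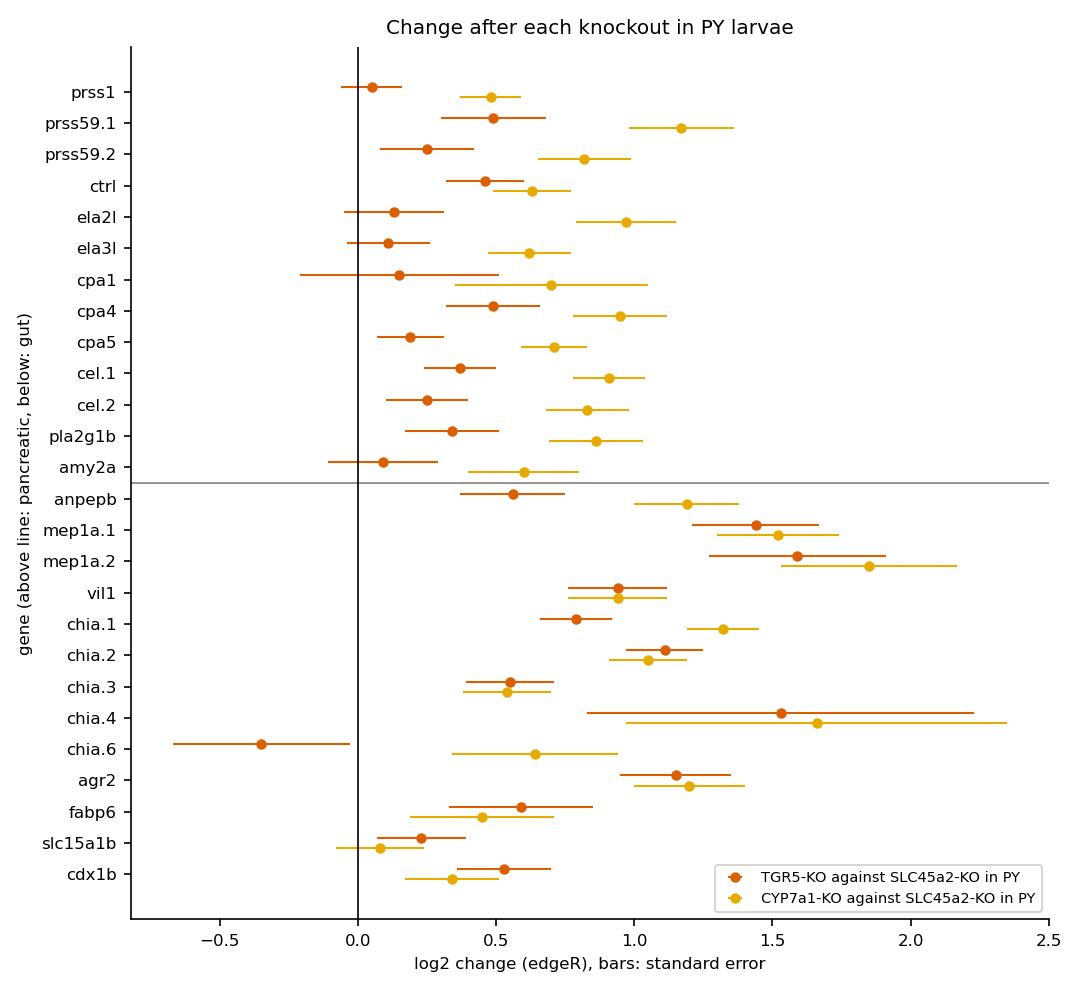
Log2 changes (points, edgeR) ± SE (bars) of 26 tested digestive genes in PY TGR5-KO and in PY CYP7a1-KO, each against the same PY SLC45a2-KO libraries, with pancreatic genes above the grey line and gut genes below it. The pancreatic genes shown lay at 0.05 to 0.49 with TGR5-KO and at 0.48 to 1.17 with CYP7a1-KO.

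The difference between the knockouts in PY was tested directly, by PY TGR5-KO against PY CYP7a1-KO. All 14 pancreatic log2 changes were below 0 (median -0.53, against 0.00 for all genes), but 1 gene, the carboxypeptidase cpa5, was called, where 0.135% of all genes (21) were called. It had 791, 635, 855, 763 and 790 CPM in PY TGR5-KO and 1157, 1170, 1055, 906 and 1190 CPM in PY CYP7a1-KO, without overlap (log2 change -0.52 ± 0.12, edgeR adjusted p = 0.0406). The call was lost when the 2 groups were fitted alone (0.344), without PY CYP7a1-KO libraries 1 and 2 (0.154) and without PY CYP7a1-KO library 1, 2, 3 or 5 or PY TGR5-KO library 1, 2, 4 or 5 (0.0591 to 0.124). DESeq2 called 7 of the 14, where it called 1.08% of all genes it tested (70). At an unadjusted p under 0.05 stood 12 of the 14, a share that was not counted over all genes. Pancreatic genes tended to vary together between pools, so these are not separate results. Among the pancreatic genes that missed edgeR's threshold was ela2l, with 463, 479, 525, 492 and 486 CPM in PY TGR5-KO and 935, 630, 885, 864 and 1043 CPM in PY CYP7a1-KO (-0.83 ± 0.18, edgeR adjusted p = 0.0546). The summed pancreatic levels of the groups did not overlap, at 10096 to 11416 CPM in PY TGR5-KO and 12113 to 17770 CPM in PY CYP7a1-KO. In the gut 0 of 13 genes were called by edgeR (3 at an unadjusted p under 0.05, 1 by DESeq2), and the log2 changes of vil1 (0.00 ± 0.17), chia.2 (0.05 ± 0.14), chia.3 (0.02 ± 0.16) and agr2 (-0.05 ± 0.19) were small, though a missed threshold does not show that the knockouts act alike.

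In WT larvae the same knockouts did not raise the digestive genes as a group. TGR5-KO and CYP7a1-KO were compared there with the same WT SLC45a2-KO libraries, so their results are not independent. With TGR5-KO 0 of 14 pancreatic genes rose and 2 fell (median log2 change -0.39), and 0 of 13 gut genes rose and 1 fell (median -0.35), where 6.49% of all genes were called and the median was -0.01. The trypsin prss1 had 3118, 3809, 3615 and 2561 CPM in WT TGR5-KO against 4118, 4477, 4814 and 4605 CPM in WT SLC45a2-KO (-0.46 ± 0.13, edgeR adjusted p = 0.0193). The lipase cel.1 had 447, 585, 500 and 347 CPM against 623, 729, 718 and 643 CPM (-0.53 ± 0.15, edgeR adjusted p = 0.0169). Neither pair overlapped, yet WT TGR5-KO library 4 was low in both, and without it neither was called (0.123 and 0.116). Both calls were also lost without WT TGR5-KO library 1 (0.0632 and 0.0556) and without WT SLC45a2-KO library 3 (0.0614 and 0.0509), prss1 without library 4 of that group (0.0501) and cel.1 without library 2 (0.0575). The aminopeptidase anpepb fell, with 114, 82.8, 148.3 and 128 CPM in WT TGR5-KO against 326, 304, 239 and 297 CPM in WT SLC45a2-KO (-1.30 ± 0.21, edgeR adjusted p = 8.71e-05). The astacin c6ast3 fell too (-0.61 ± 0.18), a call lost without WT TGR5-KO library 1, 3 or 4 or WT SLC45a2-KO library 2 or 3 (0.0653 to 0.102).

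With CYP7a1-KO in WT 6 gut genes fell, and no pancreatic gene was called lower. Of 13 gut genes 6 fell and 0 rose (median log2 change -0.61), while of 14 pancreatic genes 0 fell and 1 rose (median 0.03), where 11.6% of all genes were called and the median was 0.02. The aminopeptidase anpepb had 139, 118, 59.3 and 93.8 CPM in WT CYP7a1-KO, below every WT SLC45a2-KO library (-1.51 ± 0.21, edgeR adjusted p = 5.72e-06). The ileal carrier fabp6 had 463, 352, 341 and 236 CPM in WT CYP7a1-KO against 721, 827, 1000 and 849 CPM in WT SLC45a2-KO (-1.29 ± 0.29, 2.44-fold lower, edgeR adjusted p = 0.00481). Villin had 84, 78.8, 60.8 and 55.3 CPM of vil1 against 122, 126, 133 and 117 CPM (-0.84 ± 0.19, edgeR adjusted p = 0.0015), and chia.1 (-0.61 ± 0.14), chia.2 (-0.77 ± 0.15) and mep1a.1 (-0.76 ± 0.23) fell too. The call of mep1a.1 was lost without WT CYP7a1-KO library 2, 3 or 4 or WT SLC45a2-KO library 3 or 4 (0.0544 to 0.103). The goblet cell gene agr2 stood at 0.16 ± 0.20 and the homeobox gene cdx1b at -0.02 ± 0.18.

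The phospholipase pla2g1b was the pancreatic gene called in WT CYP7a1-KO, with 51.6, 49.7, 45.2 and 45.6 CPM against 31.3, 29.5, 30.6 and 36.7 CPM in WT SLC45a2-KO and no overlap (0.58 ± 0.18, edgeR adjusted p = 0.0278). Its call was lost without WT CYP7a1-KO library 1 or 2 or WT SLC45a2-KO library 1, 2 or 3 (0.0618 to 0.076). The astacin c6ast3 fell (-0.65 ± 0.18, or edgeR adjusted p = 0.0581 without WT CYP7a1-KO library 4). Hepatocyte genes fell in 16 of 24 cases with 0 higher, at 11481 to 13430 CPM in WT CYP7a1-KO against 17723 to 22786 CPM in WT SLC45a2-KO, and proliferation genes in 10 of 19 with 0 higher (358 to 459 CPM against 716 to 821 CPM). Only hp of the hepatocyte genes was at 0 in both groups, as were cdk1 and plk1 of the proliferation genes. Of all genes 11.6% were called in this comparison. The part of the hepatocyte and proliferation genes in the fall of the gut genes was not tested.

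Set against each other in WT, TGR5-KO and CYP7a1-KO differed in about the same share of digestive genes as of all genes. Of 14 pancreatic genes 3 were lower and 0 higher with TGR5-KO (median log2 change -0.24), and of 13 gut genes 3 were higher and 0 lower (median 0.21), where 21.1% of all genes were called and the median was -0.04. All 14 pancreatic log2 changes were below 0, as they were between these knockouts in PY. WT TGR5-KO library 4, low in pancreatic genes, was part of this comparison. The amylase amy2a had 71.7, 83.7, 92.7 and 57.3 CPM in WT TGR5-KO and 121, 143.2, 120 and 176 CPM in WT CYP7a1-KO (-0.88 ± 0.22, edgeR adjusted p = 0.00452). The log2 change of the trypsin prss1 was -0.47 ± 0.13 and that of ela3l -0.47 ± 0.17, and the call of ela3l was lost in a fit of the 2 groups alone (edgeR adjusted p = 0.17) and without WT TGR5-KO library 1 or 4 or WT CYP7a1-KO library 3 or 4 (0.0852 to 0.178). The carrier fabp6 had 643, 550, 908 and 770 CPM in WT TGR5-KO and 463, 352, 341 and 236 CPM in WT CYP7a1-KO (1.04 ± 0.29, edgeR adjusted p = 0.0126, or 0.0505 without WT CYP7a1-KO library 4). Villin was higher with TGR5-KO (0.82 ± 0.19, edgeR adjusted p = 0.00105), as was chia.2 (0.43 ± 0.15), whose call was lost with the filter of 5 CPM (0.0501) and without WT TGR5-KO library 2 or 3 or WT CYP7a1-KO library 2, 3 or 4 (0.0513 to 0.166). Without WT CYP7a1-KO library 4 the count of gut genes was 1. Hepatocyte genes were higher with TGR5-KO in 16 of 24 cases and proliferation genes in 11 of 19, with 0 lower in either list, and their part in the result was not tested.

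The difference in the effect of a knockout between PY and WT was tested as an interaction, the log2 change in PY minus that in WT. Both interactions use the same PY SLC45a2-KO and WT SLC45a2-KO libraries. These libraries also gave the comparison of PY with WT under SLC45a2-KO alone. A like result in both interactions is therefore not a repeat. For TGR5-KO 7 of 13 gut genes and 1 of 14 pancreatic genes were called, all above 0, where 6.71% of all genes were called and the median was 0.04. The gut genes had a median of 0.96 and the pancreatic genes one of 0.56. For CYP7a1-KO 9 of 13 gut genes (median 1.74) and 7 of 14 pancreatic genes (median 0.65) were called, all above 0, where 17.8% of all genes were called and the median was -0.00. The aminopeptidase anpepb rose in PY and fell in WT with each knockout, though its rise with TGR5-KO was at the threshold (edgeR adjusted p = 0.0488) and often lost, as given above. In the shared WT SLC45a2-KO libraries anpepb had 239 to 326 CPM, above every library of the other groups. Its interaction was 1.86 ± 0.28 for TGR5-KO and 2.70 ± 0.28 for CYP7a1-KO (edgeR adjusted p = 4.44e-05 and 3.95e-08). For CYP7a1-KO mep1a.1 (2.28 ± 0.32), vil1 (1.77 ± 0.26), chia.1 (1.93 ± 0.19) and chia.2 (1.82 ± 0.21) likewise rose in PY and fell in WT. The call of mep1a.1 in WT was lost without single libraries, as given above.

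Among pancreatic genes the lipase cel.1 was called in both interactions, which share their controls (0.90 ± 0.20 for TGR5-KO and 1.27 ± 0.20 for CYP7a1-KO). Among the others called for CYP7a1-KO were prss59.1 (1.32 ± 0.29), ela2l (1.26 ± 0.27), prss59.2 (1.00 ± 0.26), cel.2 (0.77 ± 0.23) and cpa5 (0.59 ± 0.17). The trypsin prss1 missed the threshold in both (0.51 ± 0.17 and 0.47 ± 0.17, edgeR adjusted p = 0.0608 and 0.0504). The number of pancreatic genes called for TGR5-KO rose to as many as 6 when a library was left out (WT TGR5-KO library 2), and was also moved by leaving out PY SLC45a2-KO library 2, 3, 4 or 5, PY TGR5-KO library 1 or 2 or WT SLC45a2-KO library 1 (2 to 4).

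How the genes varied between pools of the same group was described over the 27 libraries, after taking each gene's group mean from its log2 CPM (offset 0.5, genes with a mean of at least 5 CPM). Pancreatic genes tended to be high or low in the same pools, with a median Pearson's r of 0.52 over 91 pairs of genes, 89 of them above 0. Gut genes did so less, with a median r of 0.16 over 66 pairs, and between a pancreatic and a gut gene the median r was 0.04 over all such pairs. The highest r was that of prss59.1 with prss59.2 (0.91), followed by prss1 with ela3l (0.87). Part of this rested on the pools low in pancreatic genes. Without PY SLC45a2-KO library 4 and WT TGR5-KO library 4 the medians were 0.29 for pancreatic pairs, 0.16 for gut pairs and 0.01 between them. All pairs share the depth and scaling of the same libraries. The astacin c6ast4 had a median r of 0.45 with pancreatic genes and 0.05 with gut genes, and c6ast3 0.39 and 0.11. The low gene cpa1 had 0.15 with the other pancreatic genes. Some gut genes had a higher median r with pancreatic than with gut genes. These were agr2 (0.26 and 0.02), cdx1b (0.30 and 0.20) and slc15a1b (0.06 and -0.09).

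Several of the genes lie next to each other in the RefSeq assembly GRCz12tu, used for gene order alone, and such neighbours did not always move together. No other protein-coding gene lay between chia.1 and chia.2, prss59.1 and prss59.2, mep1a.1 and mep1a.2, cel.2 and cel.1, cpa1 and cpa5 or c6ast4 and c6ast3, while 2 lay between chia.1 and chia.3. The log2 ratio of the counts of chia.1 to chia.3 was 0.45 to 1.65 in PY SLC45a2-KO and 2.15 to 2.91 in WT SLC45a2-KO. It was 0.76 to 1.59 in PY TGR5-KO against 2.63 to 2.97 in WT TGR5-KO, and 1.01 to 2.11 in PY CYP7a1-KO against 1.63 to 2.26 in WT CYP7a1-KO, where the groups overlapped. For chia.1 over chia.2 the PY and WT ranges overlapped under each knockout (0.69 to 1.08 against 0.63 to 0.98 with SLC45a2-KO alone). The log2 ratio of c6ast4 to c6ast3 was 1.32 to 1.62 in PY SLC45a2-KO against 2.49 to 2.64 in WT SLC45a2-KO. For prss59.1 over prss59.2 it was -0.32 to 0.22 in PY SLC45a2-KO against 0.00 to 0.19 in WT SLC45a2-KO, which overlap. These ratios compare counts within a library and were not tested.

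**Figure D5:**
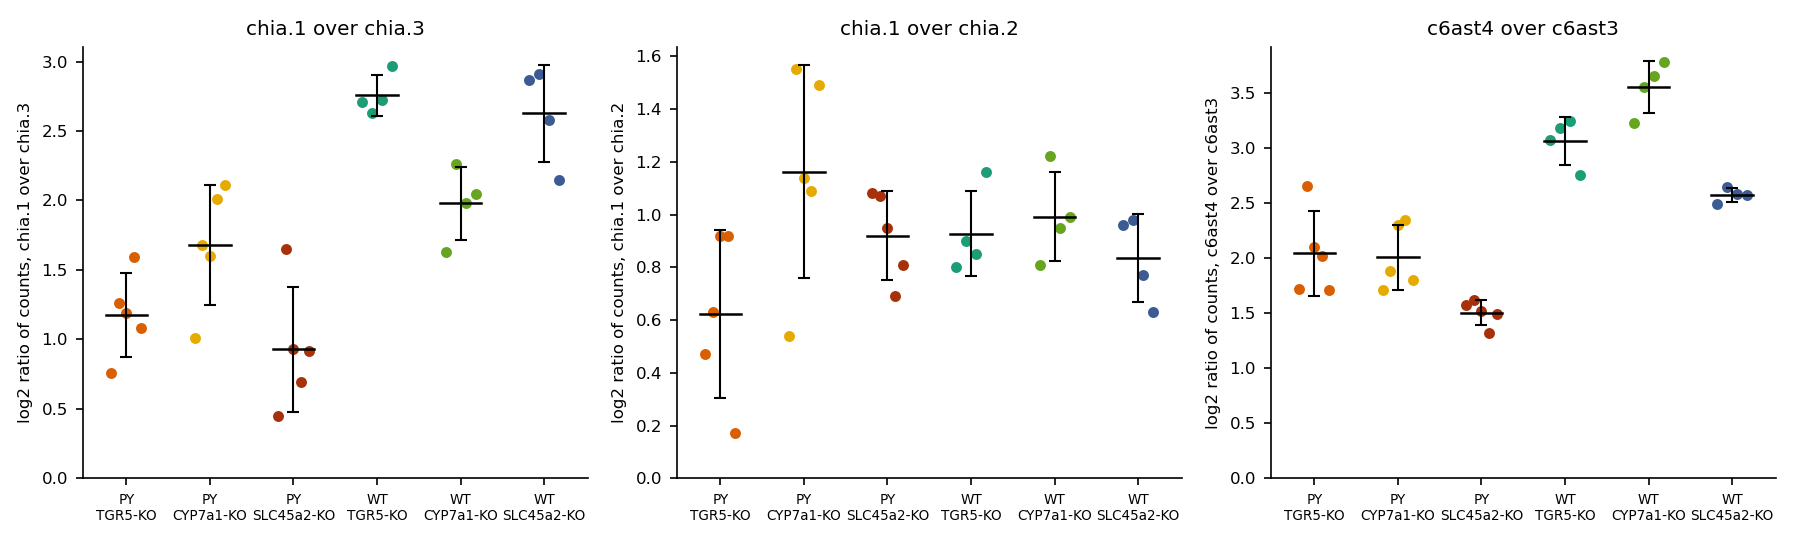
Log2 ratio of counts of 3 pairs of related genes in each library by group, with points for libraries and black lines for the mean ± SD (n = 5 in PY groups, n = 4 in WT groups). With SLC45a2-KO alone, chia.1 over chia.3 and c6ast4 over c6ast3 were lower in every PY library than in every WT library, while chia.1 over chia.2 overlapped.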

How the data were processed

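The authors deposited 1 table with read counts and CPM (counts per 1000000 counts) per gene for 27 libraries of pooled whole larvae, made with a 3′ mRNA kit per the labels' protocols. The builds danRer10 and GRCz11 are named per the submitters' processing notes, and no source used here names the aligner or counter. The deposited CPM equalled count over library total within 0.0005. Counts were tested with edgeR 4.0.16 (R 4.3.3; TMM factors, filterByExpr, robust quasi-likelihood fit of all 27 libraries in 6 groups), with Benjamini-Hochberg adjustment over 15521 genes in each of 11 comparisons and a threshold of 0.05. CPM in the text were computed from the counts with TMM factors. The most abundant entry held 28.79% of counts, and 118 symbols stood on more than 1 entry. DESeq2 1.42.0, other scaling (RLE), other filters, fits of the groups compared alone, a replicate block and leaving out libraries were alternatives. The test was tried on simulated counts first. Libraries with the same replicate number did not deviate together.

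The members and gene lists were chosen with earlier results of these data known. Any member could be named, but 1 tested pancreatic gene is counted with its class and not reported here by itself. From each other list up to 4 genes were, those with the largest log2 change among those called in PY against WT with SLC45a2-KO, at a mean of at least 5 CPM. The lists were acinar partners, endocrine pancreas, enterocyte, ileal bile acid uptake, goblet and transcription factor, hepatocyte, fast muscle, proliferation and appetite genes.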

Additional observations from a re-analysis of the deposited data

Results flagged for a closer look

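A library stood apart from the others of its group by Dixon's criterion in 8 of 186 groups of values, where chance gives about 1 in 20, or 9.3. These were ctrl in WT TGR5-KO library 1 (3192 CPM), cpa5 in WT SLC45a2-KO library 1 (930 CPM), amy2a in PY CYP7a1-KO library 1 (139 CPM) and chia.2 in WT TGR5-KO library 3 (401 CPM). The others were chia.3 in PY SLC45a2-KO library 2 (78.7 CPM), cdx1b in PY CYP7a1-KO library 4 (27.4 CPM), and cpa6 in PY SLC45a2-KO library 4 (1.93 CPM) and in PY TGR5-KO library 1 (4.7 CPM).

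The effect of TGR5-KO differed between PY and WT by edgeR's interaction test in 8 genes, all with a higher log2 change in PY. The difference was 0.90 for cel.1, 1.86 for anpepb, 1.90 for mep1a.1, 2.24 for mep1a.2, 0.96 for vil1, 1.04 for chia.1, 1.45 for chia.2 and 0.96 for chia.3.

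Among the genes reported by name, the effect of CYP7a1-KO differed in 17 by the same test, again all with a higher log2 change in PY. Both interactions share their SLC45a2-KO libraries. Among pancreatic genes it was 1.32 for prss59.1, 1.00 for prss59.2, 1.26 for ela2l, 0.59 for cpa5, 1.27 for cel.1 and 0.77 for cel.2. Among gut genes it was 2.70 for anpepb, 2.28 for mep1a.1, 2.71 for mep1a.2, 1.77 for vil1, 1.93 for chia.1, 1.82 for chia.2, 1.25 for chia.6, 1.04 for agr2 and 1.74 for fabp6. For the astacins it was 1.44 for c6ast3 and 0.96 for c6ast4. The call of chia.6 was lost in several alternatives, among them DESeq2 (adjusted p = 0.0526).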

How the results depend on the processing

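No gene's called log2 change reversed in any alternative. Over all 30 genes and 11 comparisons, leaving out 1 library kept the side of the threshold 3311 times, lost a call 128 times and gained one 71 times, and the other alternatives did so 2477, 31 and 110 times. Counts of called genes that moved by over 1.5 times were small ones, and the cause was not tested. Pancreatic genes lower in PY than in WT with CYP7a1-KO numbered 3 in place of 6 without PY CYP7a1-KO libraries 1 and 2, and gut genes lower with TGR5-KO 3 to 5 when 1 library was left out. Pancreatic genes higher with TGR5-KO in PY numbered 1, but 3 with no filter, 0 with the 2 groups alone, 2 without PY CYP7a1-KO libraries 1 and 2, and 0 to 4 when 1 library was left out. With TGR5-KO in WT the pancreatic count of 2 was 6 with no filter (0 to 3 leaving 1 out), and the gut count of 1 was 2 with no filter and 4 with the 2 groups alone (1 to 2). With CYP7a1-KO in WT the pancreatic count of 1 was 4 with the 2 groups alone and 2 with RLE factors, TMM without these genes and those over 1% of counts, no filter, the 5 CPM filter or DESeq2 (0 to 2). Between TGR5-KO and CYP7a1-KO in PY the pancreatic count of 1 was 8 with no filter, 7 with DESeq2 and 2 with RLE factors, the other TMM, the 5 CPM filter or the replicate block (0 to 2). The gut count of 0 there was 2 with no filter and 1 with RLE factors, the 5 CPM filter, DESeq2 or without PY CYP7a1-KO libraries 1 and 2 (0 to 1). Over all genes that comparison gave 21 calls, against 95 with no filter, 70 with DESeq2 and 3 with the 2 groups alone. In WT its gut count of 3 was 6 with the 2 groups alone (1 to 4). The TGR5-KO interaction of 1 pancreatic gene was 7 with no filter, 4 with the 5 CPM filter or the replicate block, and 2 with the groups alone, DESeq2 or without PY CYP7a1-KO libraries 1 and 2 (1 to 6). The median r of pancreatic pairs moved to 0.29, against 0.52, without the 2 low libraries, an alternative chosen after seeing the data. Replicate numbers did not pair the libraries, with r of -0.104 to 0.0624 over 35 pairs. With the replicate block the calls of amy2a with CYP7a1-KO in PY (edgeR adjusted p = 0.0637), anpepb with TGR5-KO in PY (0.0689) and chia.6 in the CYP7a1-KO interaction (0.0555) were lost. Depth limits cpa1, chia.4 and cpa6 and the 8 untested genes.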

Other observations

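With SLC45a2-KO alone, 17.9% of all tested genes were called higher and 17.7% lower in PY than in WT by edgeR, and the counts of the short lists here are read against these shares. Of 16 tested genes of the endocrine pancreas 0 were higher and 3 lower, near the share of all genes called lower. The somatostatin gene sst2 had 9.55 ± 2.18 CPM in PY and 26.4 ± 2.92 CPM in WT (SD, n = 5 and 4; log2 change -1.46 ± 0.25). The prohormone convertase pcsk2 (-1.18 ± 0.25) and the granin chga (-1.08 ± 0.24) fell too, while ins was listed at 0 in every group. In RNA from whole larvae the tissue behind these falls was not tested. Of 5 genes of ileal bile acid uptake and sensing 2 rose and 0 fell. The bile acid exporter subunit slc51a had 264 ± 53.6 CPM in PY and 29.9 ± 2.09 CPM in WT (3.14 ± 0.19), and the export pump abcc2, which the liver also expresses, had 56.8 ± 10.4 CPM in PY and 10.6 ± 2.67 CPM in WT (2.42 ± 0.27). Of 6 tested appetite and feeding peptide genes 2 rose and 0 fell, too few to set apart from the share of all genes, at a summed level of 16.3 to 52.9 CPM in PY and 12.6 to 19 CPM in WT.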
